A study of Mus musculus with 6 samples.

Results

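The high-mobility group (HMG) genes Hmgb1, Hmgb2, Hmgb3, Hmgn1, Hmgn2, Hmgn3, Hmgn5, Hmga1 and Hmga2 and the bromodomain gene Atad2 were followed in mouse cells that lacked the ubiquitin ligase gene Rnf20. They were chosen by name, with no threshold on their values but with earlier results of these data known. The paper had already shown Atad2 and Hmgb1 as genes with less SOX2 binding and lower expression after Rnf20 knockout. Counts over the 10 genes are thus no unbiased draw from all genes. They make up 10 of the 16982 genes in the count table. All 10 passed the filter on low counts that left 13386 genes for testing. RNA-seq was made from 3 wild type (WT) and 3 Rnf20-/- (KO) cultures of reprogrammable cells on day 3 of reprogramming. These cells are mouse embryonic fibroblasts (MEF) on a C57BL/6 strain background that received retroviral OCT4, SOX2, C-MYC and KLF4, a transgene set that starts the way to induced pluripotent stem cells. Per the methods, the MEF came from Rnf20 Flox/Flox; Tamoxifen-cre embryos, in which 4-OH tamoxifen in the medium drives the deletion, and infected MEF were replated on mitomycin-C-treated MEF feeder layers, whose RNA may be part of each library. The labels call all 6 cultures untreated, and whether WT cells also received the drug is not given in the sources used here. If WT cells did not, genotype and drug cannot be told apart. Nothing in the labels says that the replicates of a genotype came from separate embryos or cultures, so p-values measure the spread between these libraries, which may be technical.

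HMG proteins are small, abundant chromatin proteins that make DNA and nucleosomes more flexible. HMGB proteins bend DNA through HMG boxes, HMGN proteins bind inside the nucleosome and compete with linker histone H1, and HMGA proteins bind AT-rich DNA through AT hooks. ATAD2 joins an AAA+ ATPase to a bromodomain, which binds acetylated histones, and is best known in dividing and tumour cells. RNF20 is the E3 ligase that places ubiquitin on histone H2B in transcribed genes, a mark that opens chromatin, so the comparison asks how genes for other chromatin-opening proteins stood in its absence.

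The libraries held 20545442 to 21746898 counts, of which the 10 genes took 0.180% to 0.192% in WT and 0.0929% to 0.120% in KO. Rnf20 stood at 106 to 107 CPM (counts scaled to a common library size, normalized by the trimmed mean of M-values, TMM) in WT and at 16.4 to 18.7 in KO, which was 16.8% of WT. Rnf20 thus matched the genotype label in every library, although counts over the whole gene include exons outside the deletion. KO replicate 3 stood apart from the other KO libraries. Its chi-square per gene was 92.4 against KO replicate 1 and 101 against KO replicate 2, where the other pairs within a genotype had 6.04 to 8.92. In 11.5% of the genes tested it lay more than 1 log2 unit from the mean of the other KO libraries, so results are given with and without it. Summed fibroblast markers stood at 29972 to 32801 CPM in WT and at 21369 to 39595 in KO, and summed epithelial markers at 41.2 to 42.9 CPM in WT and at 33.3, 23.3 and 3.14 in KO replicates 1 to 3. Krt8, at 28.4 to 30.3 CPM in WT, made up most of the epithelial sum there. In bulk RNA fewer cells of a type and less RNA per cell cannot be told apart.

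The HMGB genes, Hmgn2, Hmgn5 and Atad2 fell in KO cells to between 23.2% and 46.2% of their WT level, Hmga1 and Hmgn3 fell less, Hmga2 rose, and Hmgn1 stood at 97.8% of WT. With p-values of the quasi-likelihood test of edgeR, adjusted by Benjamini-Hochberg over the 13386 genes and taken as passed under 0.05, 8 of the 10 fell and 1 rose, where 16.6% of all genes tested fell and 16.4% rose. With library size as the only scaling the whole-table counts shifted from 2218 lower and 2195 higher to 2684 and 1750, and the counts for the 10 genes did not move. In the same 8 genes every KO library lay below every WT library, which held for 28.2% of all genes, and in Hmga2 every KO library lay above, which held for 26.6%. Under the stricter rule of an adjusted p under 0.01, a change of more than 2-fold and a mean of more than 1 FPKM (fragments scaled by gene length and by library depth), 4 of the 10 were called lower (Hmgb1, Hmgb2, Hmgn2 and Hmgn5), against 2.08% of all genes. The median log2 fold change of the 10 genes was −1.13, beside −0.00032 over all genes tested. Without KO replicate 3 the median was −0.98 and 5 genes were called lower (Hmgb2, Hmgb3, Hmgn2, Hmgn5 and Atad2), against 3.62% of all genes. At an adjusted p under 0.05 without this library again 8 were lower and 1 higher, against 24.2% and 23.9% of all genes. In the edgeR fit without KO replicate 2, 0 of the 10 were called lower, against 0.22% of all genes. Without any 1 of the 3 WT libraries also 0 were called lower, against 0.0074% in each fit. Without KO replicate 1, 1 (Hmgn5) was called lower, against 0.36%. In each of these fits 8 of the 10 were lower at an unadjusted p under 0.05. The share of all genes at that limit was not counted. At an adjusted p under 0.05, 8 were lower without KO replicate 1 or 2, against 13.4% and 11.6% of all genes. Without any 1 WT library 5 were lower, against 5.17% to 7.31%. With all 6 libraries DESeq2 called 6 lower and limma on FPKM 1, against 4.22% and 1.69%.

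**Figure D1:**
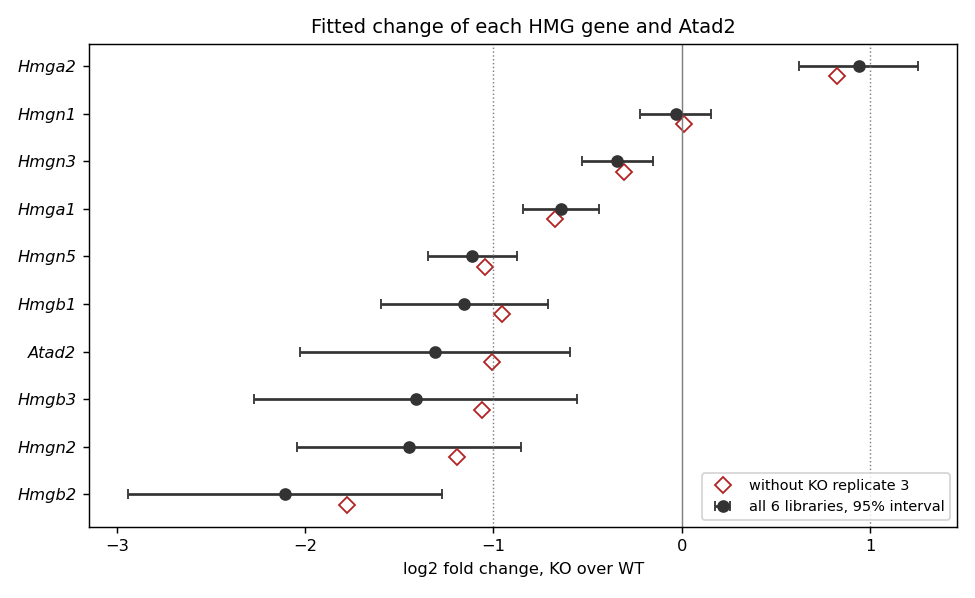
Fitted log2 fold change of KO over WT (x axis) for each of the 10 genes (y axis), with the 95% interval from all 6 libraries (filled circles) and the value without KO replicate 3 (open diamonds). Dotted lines mark a 2-fold change; Hmgb2 has the lowest value (−2.11), Hmga2 the only value well above 0 (0.94), and the diamonds of the 6 lowest genes lie closer to 0 than their circles.

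Among the HMGB genes, Hmgb1 (ENSMUSG00000066551, chr5:149046702-149184489, minus strand) encodes the most abundant HMG-box protein, which also acts as a danger signal outside the cell. It was at 616, 601 and 591 CPM in WT replicates 1 to 3 and at 317, 304 and 191 CPM in KO replicates 1 to 3. The KO libraries all lay below the WT libraries, and KO replicate 3 was the lowest. The fit gave a log2 fold change of −1.16 (SE 0.19, edgeR adjusted p = 0.00753), and −0.96 without KO replicate 3 (SE 0.053, edgeR adjusted p = 1.18e-06), which is just short of 2-fold.

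Hmgb2 (ENSMUSG00000054717, chr8:57511907-57515999, plus strand) encodes the paralog tied to dividing cells. Its WT libraries had 180, 168 and 181 CPM and its KO libraries 58.8, 44.0 and 20.2 CPM. This was the deepest fall of the 10 genes, to 23.2% of WT, and the groups were far apart. Its log2 fold change was −2.11 (SE 0.35, edgeR adjusted p = 0.00794), and −1.78 without KO replicate 3 (SE 0.11, edgeR adjusted p = 1.57e-06).

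Hmgb3 (ENSMUSG00000015217, chrX:71555918-71560676, plus strand) encodes the HMGB protein best known from stem and progenitor cells. Levels were 65.6, 62.9 and 61.0 CPM in WT and 30.2, 30.2 and 10.7 CPM in KO. KO replicates 1 and 2 were alike, and replicate 3 was at 35.5% of their mean, the lowest such share of the 10 genes. The log2 fold change of −1.41 (SE 0.36) had an edgeR adjusted p of 0.0268, which passed the looser limit only, and the value without KO replicate 3 was −1.06 (SE 0.067, edgeR adjusted p = 1.93e-06). With any 1 WT library left out the adjusted p of Hmgb3 exceeded 0.05 and reached 0.0838.

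**Figure D2:**
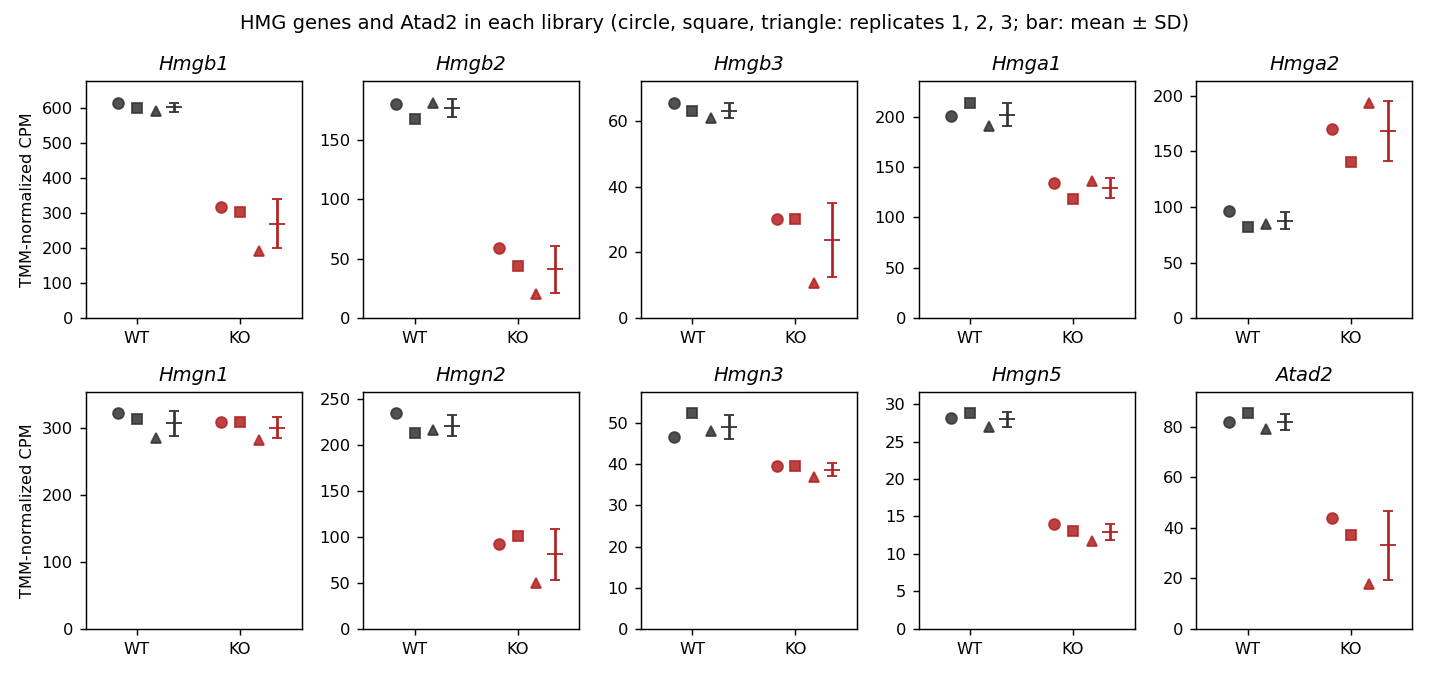
TMM-normalized CPM (y axis, from 0, with its own scale in each panel) of the 10 genes in the 3 WT and 3 KO libraries; circles, squares and triangles are replicates 1, 2 and 3, and the bars give the mean ± SD of each genotype. Groups do not overlap except for Hmgn1, and the triangle of KO replicate 3 is the lowest point for 8 genes, all but Hmga1 and Hmga2.

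The 3 HMGB genes fell together, so the bases before their start sites are shown for what they share. RefSeq start windows of GRCm38.p6 (250 bases before the start and 50 after) were at hand for 8 of the 10 genes and were searched on both strands for CCAAT (the box bound by NF-Y), TTTGAA (the cell cycle homology region, CHR), TTTGGCGC and TTTCCCGC (sites of E2F) and CATTGTT (a SOX site). The last 150 bases before the start are written 5′ to 3′ on the strand of the gene, with CCAAT and TTTGAA, which do not overlap here, in capitals.
Hmgb1, chr5:149053058-149053207, minus strand: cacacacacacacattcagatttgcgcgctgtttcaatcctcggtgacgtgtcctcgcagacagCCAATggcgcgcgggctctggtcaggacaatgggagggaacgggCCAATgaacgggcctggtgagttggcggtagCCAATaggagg
Hmgb2, chr8:57511693-57511842, plus strand: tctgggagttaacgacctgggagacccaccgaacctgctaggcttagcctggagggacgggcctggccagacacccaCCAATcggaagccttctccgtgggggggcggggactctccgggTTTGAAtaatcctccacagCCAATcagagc
Hmgb3, chrX:71555767-71555916, plus strand: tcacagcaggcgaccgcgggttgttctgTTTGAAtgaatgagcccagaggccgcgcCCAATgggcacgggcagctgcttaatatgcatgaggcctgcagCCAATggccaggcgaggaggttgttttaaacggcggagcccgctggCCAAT

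In these windows Hmgb1 held 3 CCAAT, whose first bases lay at −86, −42 and −11 from the start. Hmgb2 held 4, at −243, −198, −73 and −11, and Hmgb3 held 3, at −94, −51 and −5. At least 3 stood in 3.37% of all 32851 windows, and at least 1 in 37.4%. TTTGAA or its reverse stood at −218 and −30 in Hmgb2 and at −122 in Hmgb3, and in 17.9% of all windows. Hmgb1 has another RefSeq start, downstream of the one shown, whose window held no CCAAT. The 50 bases after this other start stood in 1 GENCODE M21 transcript of Hmgb1. For the 3 HMGB windows shown, those 50 bases stood in 0 transcripts of their gene, and the positions given are counted from the RefSeq starts. For Hmgb3 the sequence shown ends at 71555916 and the GENCODE gene begins at 71555918, so there the starts lie close together. Of the other genes, Hmgn1, which did not pass the test, held 2 CCAAT, Hmgn5 2 and Hmgn2 1, and Hmga1 and Hmga2 held none. The E2F letters, found in 0.514% and 1.07% of all windows, and the SOX letters, found in 3.78%, stood in no window of the 8 genes. A match is a description of the letters and no shown binding site, and a missing match says only that these letters are not in the window.

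Of the HMGN genes, whose products loosen nucleosome arrays, Hmgn2 (ENSMUSG00000003038, chr4:133964738-133968650, minus strand) fell most. It had 234, 213 and 216 CPM in WT and 92.6, 101 and 49.5 CPM in KO. The KO libraries all lay far below the WT libraries, and KO replicate 3 was again the lowest. Its fitted change was −1.45 log2 units (SE 0.25, edgeR adjusted p = 0.00875), and −1.19 without KO replicate 3 (SE 0.065, edgeR adjusted p = 1.16e-06).

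Hmgn5 (ENSMUSG00000031245, chrX:109004534-109013404, minus strand) encodes the HMGN protein with a long acidic tail. Its counts were 28.1, 28.8 and 26.9 CPM in WT and 13.9, 13.1 and 11.7 CPM in KO. The KO libraries lay close to each other, replicate 3 included. The log2 fold change of −1.11 (SE 0.099, edgeR adjusted p = 0.00228) had the smallest adjusted p of the 10 genes, and it was −1.04 without KO replicate 3.

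Hmgn3 (ENSMUSG00000066456, chr9:83109948-83146685, minus strand) was at 46.7, 52.4 and 48.0 CPM in WT and at 39.5, 39.6 and 36.8 CPM in KO. The groups did not overlap, but the fall was to 78.9% of WT only. Its log2 fold change was −0.34 (SE 0.079, edgeR adjusted p = 0.0196), and with any 1 WT library left out the adjusted p exceeded 0.05, up to 0.0761.

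Hmgn1 (ENSMUSG00000040681, chr16:96120618-96127729, minus strand), a ubiquitous paralog of Hmgn2, had 322, 313 and 285 CPM in WT and 309, 309 and 282 CPM in KO. These ranges overlapped almost wholly. The log2 fold change was −0.032 (95% interval −0.22 to 0.16, edgeR adjusted p = 0.778). It turned to 0.013 without KO replicate 3.

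The HMGA genes, which are high in embryonic and transformed cells, moved in opposite directions. Hmga1 (ENSMUSG00000046711, chr17:27556497-27563674, plus strand) was at 201, 214 and 191 CPM in WT and at 135, 118 and 136 CPM in KO. The groups were apart, with KO replicate 3 the highest of the KO libraries. The log2 fold change was −0.64 (SE 0.085, edgeR adjusted p = 0.00476), and −0.67 without KO replicate 3.

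Hmga2 (ENSMUSG00000056758, chr10:120361275-120476469, minus strand), the let-7 target gene that is high in early embryos and mesenchyme, was the gene that rose. Its WT libraries had 96.4, 81.5 and 84.9 CPM and its KO libraries 170, 140 and 194 CPM. Every KO library lay above every WT library, and KO replicate 3 was the highest. It rose by 0.94 log2 units (SE 0.13, 95% interval 0.62 to 1.25, edgeR adjusted p = 0.00555), or 1.92-fold, just short of the 2-fold limit. Without KO replicate 3 it was 0.83 (edgeR adjusted p = 6.14e-05).

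Atad2 (ENSMUSG00000022360, chr15:58094044-58135082, minus strand) had 81.9, 85.3 and 79.0 CPM in WT and 44.1, 37.3 and 17.8 CPM in KO. The groups were apart, and KO replicate 3 was at 43.8% of the mean of the other KO libraries. The fit gave −1.31 log2 units (SE 0.30, edgeR adjusted p = 0.0196), and −1.01 without KO replicate 3 (SE 0.081, edgeR adjusted p = 7.86e-06). With any 1 WT library left out its adjusted p exceeded 0.05, up to 0.0721. Its paralog Atad2b had a log2 fold change of −0.37 that did not pass the test (SE 0.14, edgeR adjusted p = 0.0927), and that passed without KO replicate 3 (−0.22, edgeR adjusted p = 0.0313).

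Levels were compared between genes in FPKM, which divides by gene length. In WT the order from the highest was Hmgb1 (318 ± 15.3, SD, n = 3), Hmgn2 (202 ± 10.1), Hmgn1 (193 ± 11.4), Hmga1 (141 ± 8.77), Hmgb2 (95.3 ± 7.43), Hmgn3 (56.8 ± 3.35), Hmgb3 (43.0 ± 1.72), Hmga2 (29.2 ± 2.51), Atad2 (16.1 ± 0.561) and Hmgn5 (9.64 ± 0.455). Of the neighbours in this order Hmgn2 and Hmgn1 did not differ beyond their spread. In KO the order was Hmgn1 (191 ± 16.7), Hmgb1 (141 ± 39.5), Hmga1 (88.1 ± 5.97), Hmgn2 (74.7 ± 26.0), Hmga2 (54.6 ± 7.12), Hmgn3 (44.6 ± 1.64), Hmgb2 (23.0 ± 11.6), Hmgb3 (16.4 ± 7.83), Atad2 (6.53 ± 2.85) and Hmgn5 (4.80 ± 0.289). Here the ranges of Hmgn2 overlapped those of its neighbours Hmga1 and Hmga2, and from Hmgb2 down the range of each gene overlapped the next. Within each KO library, however, Hmgb2 was above Hmgb3 and Hmgb3 above Atad2. Hmga2 thus stood below Hmgb2 in every WT library and above it in every KO library.

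Summed over each family, HMGB transcripts stood at 456, 435 and 479 FPKM in WT and at 222, 204 and 114 FPKM in KO, which is 39.5% of the WT mean. The HMGN sum went from 480, 458 and 448 FPKM to 336, 347 and 264 FPKM, or 68.3% of WT. The HMGA sum was 166, 178 and 168 FPKM in WT and 146, 128 and 154 FPKM in KO, or 83.7% of WT. In all 3 families each KO library lay below each WT library, and the HMGB sum was lowered most. The makeup moved as well. Hmga2 made up 17.2% ± 2.04 of HMGA transcripts in WT and 38.2% ± 1.54 in KO (SD, n = 3), Hmgn1 made up 41.8% ± 1.24 and 61.0% ± 3.58 of HMGN transcripts, and Hmgb2 20.9% ± 0.634 and 12.3% ± 2.93 of HMGB transcripts.

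**Figure D3:**
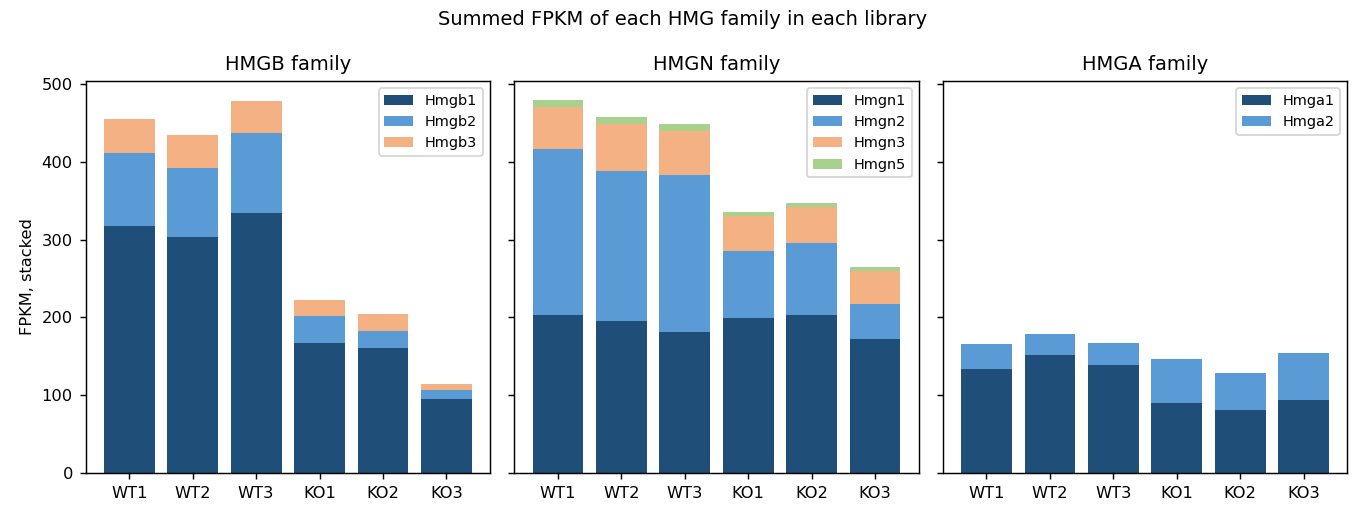
FPKM (y axis, stacked) of the HMGB, HMGN and HMGA genes in each WT and KO library (x axis). The HMGB stack falls from at least 435 in WT to at most 222 in KO, the Hmgn1 segment is about as high in KO as in WT while Hmgn2 shrinks, and the Hmga2 segment grows while Hmga1 shrinks.

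The shift within families was read as the difference in log2 CPM of paired genes in each library, on which the scaling of libraries has almost no bearing. Hmga2 lay 1.06, 1.39 and 1.17 log2 units below Hmga1 in WT replicates 1 to 3 and 0.34, 0.25 and 0.51 units above it in KO. On the FPKM scale, which counts length, the ratio of Hmga2 to Hmga1 was 0.239, 0.179 and 0.205 in WT and 0.630, 0.574 and 0.651 in KO. Hmgn1 to Hmgn2 was 0.956, 1.01 and 0.896 in FPKM in WT and 2.32, 2.17 and 3.83 in KO. Hmgb2 to Hmgb1 was 0.296, 0.292 and 0.310 in WT and 0.208, 0.142 and 0.121 in KO. Hmgb3 to Hmgb1 moved less, with a difference between the genotypes of −0.37 log2 units, and −0.10 without KO replicate 3. On the FPKM scale this pair overlapped, with ratios of 0.142, 0.140 and 0.124 in WT and 0.125, 0.132 and 0.0777 in KO. In log2 CPM none of these 4 pairs overlapped between genotypes. Their differences between genotypes of 1.57 for Hmga2 to Hmga1, 1.48 for Hmgn1 to Hmgn2, −1.04 for Hmgb2 to Hmgb1 and −0.37 for Hmgb3 to Hmgb1 each had an exact two-sided permutation p of 0.1, the smallest that 3 against 3 libraries allow, and an adjusted value of 0.125 over the 5 pairs compared. Atad2 to Hmgb1, the fifth pair, had overlapping groups, a difference of −0.22 and an exact permutation p of 0.3 (adjusted 0.3), and the difference was −0.056 without KO replicate 3 and −0.34 without KO replicate 1. Without KO replicate 3 the differences were 1.21 for Hmgn1 to Hmgn2 and −0.83 for Hmgb2 to Hmgb1. That of Hmga2 to Hmga1 moved by less than the SD of either genotype without this library.

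**Figure D4:**
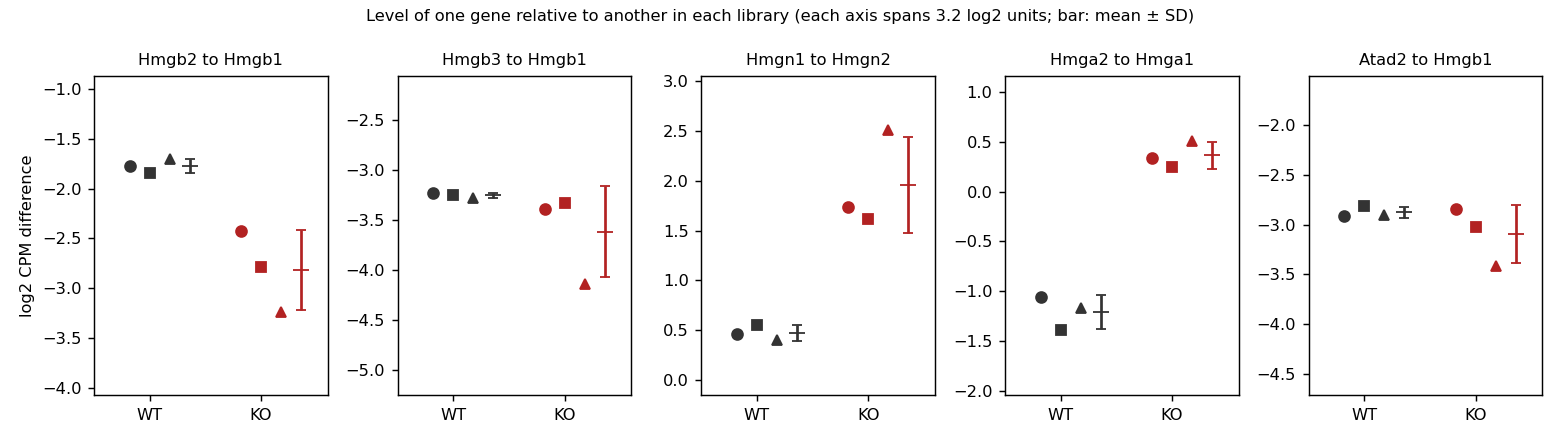
Difference in log2 CPM between the genes of each of the 5 pairs (y axis, each spanning 3.2 log2 units) in WT and KO libraries; circles, squares and triangles are replicates 1, 2 and 3 and the bars give mean ± SD. WT points lie closer together than KO points except for Hmga2 to Hmga1, and the genotypes overlap for Atad2 to Hmgb1 but not for the other pairs.

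KO replicate 3 was not lower by the same share in all 10 genes. This library stood at 35.5% to 61.6% of the mean of KO replicates 1 and 2 for Hmgb3, Hmgb2, Atad2, Hmgn2 and Hmgb1, at 86.7% to 93.0% for Hmgn5, Hmgn1 and Hmgn3, at 108% for Hmga1 and at 125% for Hmga2. A list of 15 proliferation genes was lowest in KO replicate 3 in its sum and median, though not in each gene. All 15 fell at an adjusted p under 0.05 (edgeR's quasi-likelihood test), beside 16.6% of all genes. The median log2 fold change of the 15 was −1.53, and −1.24 without KO replicate 3. Their summed level was 1971 to 2005 CPM in WT and 893, 779 and 352 CPM in KO replicates 1 to 3. Mki67, the Ki-67 antigen of dividing cells, was at 472, 439 and 412 CPM in WT and at 153, 128 and 32.5 CPM in KO, and so fell by 2.08 log2 units (SE 0.51, edgeR adjusted p = 0.0239). Tyms, also of this list, was at 22.1, 18.9 and 19.9 CPM in KO replicates 1 to 3, with replicate 3 not the lowest. Summed macrophage markers were at 15.1 to 25.7 CPM in the other 5 libraries and at 57.6 CPM in KO replicate 3, mostly from Adgre1 at 31.9 CPM. Of the 4 macrophage markers 0 passed edgeR's test, also at an unadjusted p under 0.05 and by DESeq2 and limma. Of the 4 epithelial markers 0 passed edgeR's test, with 2 lower at an unadjusted p under 0.05. By DESeq2 1 of them was lower and by limma 0, beside 18.6% and 14.85% of all genes. The share of all genes at the unadjusted limit was not counted. Without KO replicate 3 the epithelial markers Krt8 (−0.95, edgeR adjusted p = 0.000347) and Krt18 (−0.94, edgeR adjusted p = 0.0465) passed as lower, beside 24.2% of all genes. The other epithelial markers, Epcam (−0.80, edgeR adjusted p = 0.104) and Cdh1 (0.20, edgeR adjusted p = 0.309), did not pass, and Cdh1 had the opposite sign. The part of proliferation, of other cells or of this 1 library in the levels of the HMG genes and Atad2 was not tested.

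**Figure D5:**
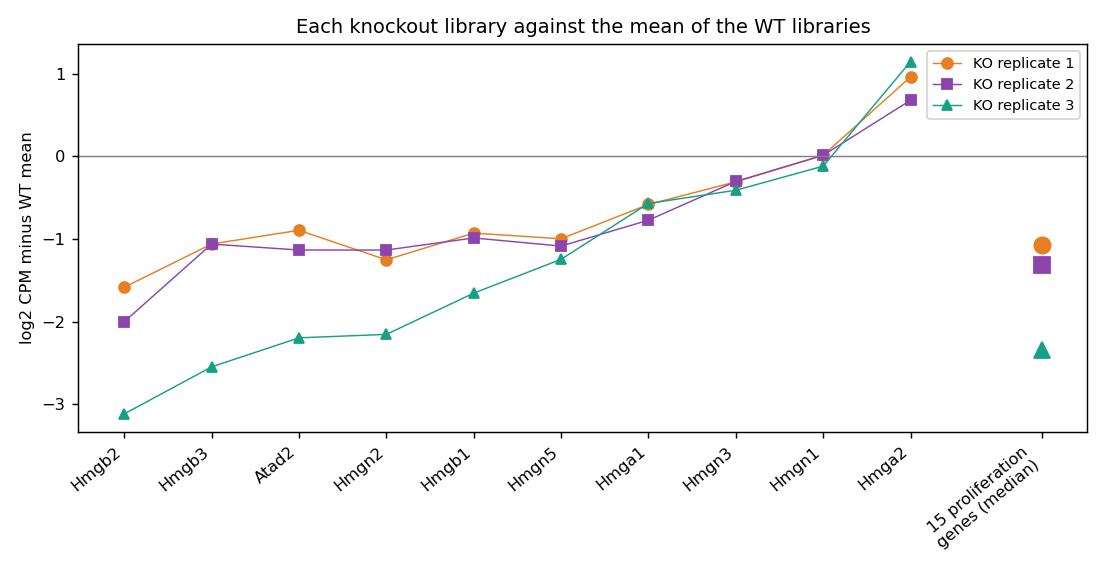
Log2 CPM of each KO library minus the mean of the WT libraries (y axis) for the 10 genes (x axis, ordered by KO replicate 3), with the median of 15 proliferation genes at the right; colours and symbols mark the KO replicates and lines only guide the eye. KO replicate 3 lies below the others for 8 genes, by most for the 5 at the left, and for the proliferation genes, and above them for Hmga1 and Hmga2.

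For each of the 10 genes the 3 tested genes with the most like pattern were those with the smallest root mean square difference of mean-centred log2 CPM over the 6 libraries. This is a description, since libraries and genotype effect are shared by all of them. For Atad2 they were Mcm2 (0.060), Mcm3 (0.064) and Brca2 (0.073), which encode subunits of the replicative helicase and a DNA repair protein. For Hmgb2 they were Fam64a (0.10), Tk1 (0.11), the thymidine kinase of S phase, and Kif2c (0.12), a mitotic kinesin. For Hmgb3 they were Racgap1 (0.065) and Ect2 (0.078), both regulators of cytokinesis, and Dnmt1 (0.079), the maintenance DNA methyltransferase. Hmgb1 was nearest to Zwilch (0.030), Arhgap11a (0.036) and Kcp (0.045), Hmgn2 to Incenp (0.060), Gas2l3 (0.065) and Kcnh2 (0.066), and Hmgn5 to Spc25 (0.029), Rtn4rl2 (0.060) and Fap (0.061). Hmga1 was nearest to Slc17a9 (0.047), Lsm11 (0.049) and Mgme1 (0.057), and Hmga2 to Tmem198 (0.053), Arl4c (0.059) and Hbegf (0.063), the gene of an EGF-family ligand. Hmgn1 was nearest to Ppm1b (0.016), Cggbp1 (0.018) and Gatad2b (0.020), and Hmgn3 to Dars (0.021), Man2c1 (0.021) and Mat2b (0.026). Between the 10 genes themselves, Atad2 was closest to Hmgb3 (0.15) and Hmgn2 (0.15).

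Genes that work beside the HMG proteins were counted from lists, at the same adjusted p under 0.05. Of linker histone H1 genes, whose products compete with HMG proteins on nucleosomes, 7 were in the count table and 5 were tested. Of these 2 fell and 3 rose, beside 16.6% and 16.4% of all genes. H1f0, the histone H1.0 of quiescent cells, was at 270, 253 and 253 CPM in WT and at 125, 122 and 88.3 CPM in KO, a log2 fold change of −1.21 (SE 0.14, edgeR adjusted p = 0.00357). H1fx also fell (−1.46, SE 0.18, edgeR adjusted p = 0.00394). Hist1h1c rose from 53.9, 45.3 and 48.7 CPM to 125, 114 and 170 CPM (log2 fold change 1.47, SE 0.16, edgeR adjusted p = 0.00344), as did Hist1h1b (1.24) and Hist1h1e (1.12), both at no more than 5.95 CPM in any library. Without KO replicate 3 the counts were again 2 and 3, beside 24.2% and 23.9% of all genes. The list median of 1.12 is that of the middle gene of 5 that moved both ways, and replication-dependent histone mRNA mostly lacks a poly(A) tail, while the libraries were made from poly(A) RNA.

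Of 17 tested genes for other HMG-box chromatin proteins 7 fell and 0 rose in edgeR's test, beside 16.6% and 16.4% of all genes. In this list 1 rose at an unadjusted p under 0.05, 1 by DESeq2 and 0 by limma. Over all genes 2605 of 13386 rose by DESeq2 and 1696 of 12633 by limma. The median log2 fold change was −0.31, and −0.19 without KO replicate 3. Without that library 10 were lower and 1 higher, beside 24.2% and 23.9% of all genes. Ubtf, the HMG-box factor of ribosomal RNA genes, fell by 0.83 log2 units (SE 0.14, edgeR adjusted p = 0.00766), Tox fell by 0.75 (edgeR adjusted p = 0.0282) and Ssrp1, a subunit of the histone chaperone FACT, fell by 0.53 (edgeR adjusted p = 0.0222). Of 16 tested Sox and TCF/LEF genes, which carry a sequence-specific HMG box, 7 fell and 0 rose in edgeR's test, beside the same shares. In this list 1 rose at an unadjusted p under 0.05 and 0 by DESeq2 or limma, beside the counts of these tools given above. The median was −0.79, or −0.54 without KO replicate 3. Without that library 10 were lower and 2 higher, beside 24.2% and 23.9% of all genes. Sox13 went from 40.8, 50.2 and 48.6 CPM to 29.3, 24.9 and 19.5 CPM (log2 fold change −0.92, SE 0.16, edgeR adjusted p = 0.00921). Sox18 and Sox8 also fell, from at most 4.56 CPM in WT, with Sox18 at 0 in KO replicates 2 and 3, where a count of 0 allows up to 0.142 and 0.143 CPM. Sox2, whose endogenous and retroviral reads were not separated, was at 350 to 392 CPM in WT and 288 to 389 in KO (log2 fold change −0.19, SE 0.12, edgeR adjusted p = 0.259), and without KO replicate 3, its highest KO library, it was lower by the test (−0.33, edgeR adjusted p = 0.00250).

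Of 33 tested genes for bromodomain proteins other than ATAD2, 7 fell and 1 rose, beside 16.6% and 16.4% of all genes, and the median was −0.11. Without KO replicate 3, 13 were lower and 7 higher, beside 24.2% and 23.9% of all genes. Zmynd8 fell by 0.87 log2 units (edgeR adjusted p = 0.0152), Brdt fell by 0.84 (edgeR adjusted p = 0.0400) and Trim28, a corepressor, fell by 0.52 (edgeR adjusted p = 0.0343), while Brd2 rose by 0.21 (edgeR adjusted p = 0.0454). Of the SET complex genes, whose products include partners of HMGB2, 4 were tested, and all 4 fell without KO replicate 3, beside 24.2% of all genes. With all 6 libraries 3 fell, beside 16.6% of all genes. These were Apex1, a DNA repair endonuclease (−0.81, SE 0.073, edgeR adjusted p = 0.00234), Anp32b (−0.57) and Anp32a (−0.40), all with KO replicate 3 in the range of or near the other KO libraries. Of the Lin28 and Igf2bp genes, which act in the let-7 pathway that limits Hmga2, 5 were tested and 1 fell, beside 16.6% of all genes. That gene was Igf2bp1 (−0.46, SE 0.089, edgeR adjusted p = 0.0116), while Lin28b was at no more than 1.34 CPM in any library. Of 7 genes for receptors and partners of extracellular HMGB1, 1 fell and 2 rose, beside 16.6% and 16.4% of all genes. Cxcl12 fell (−0.58, edgeR adjusted p = 0.0257), and Tlr4 (1.15, edgeR adjusted p = 0.0130) and Thbd (0.59, edgeR adjusted p = 0.00431) rose. Without KO replicate 3, 2 were lower and 2 higher, beside 24.2% and 23.9% of all genes. Tlr4 was at 13.2, 14.0 and 21.9 CPM in KO replicates 1 to 3, and the part of other cells in these levels was not tested. Of the 8 fibroblast markers Pdgfra and Thy1 fell, and without KO replicate 3 Fn1 (0.74, edgeR adjusted p = 0.000212) and Vim (0.28, edgeR adjusted p = 0.0115) were higher as well, and the 1 endothelial marker tested, Kdr, stood at 0.712 to 1.77 CPM with no call.

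HMG genes have many processed copies in the genome, which bears on how reads were assigned. Of all 100-base windows along the longest coding transcript, 47.0% for Hmgn2, 28.3% for Hmgb1, 18.3% for Hmgb3, a share between these for Hmgb2, and 13.3% for Hmgn5 stood letter for letter in a transcript of another annotated gene, against 2.46% for Hmgn1, 0.269% for Atad2 and none for Hmga2 and Hmgn3. Gm10282, which shares the windows of Hmgn2, had 22 to 167 counts, and the sum with Hmgn2 left the log2 fold change at −1.44. The split of reads between such copies is uncertain. Exons of Hmgb1 overlap those of Uspl1 on the opposite strand, which was at 41.5 to 43.2 CPM in WT and 40.6 to 41.0 in KO (edgeR adjusted p = 0.603), and exons of Hmga1 overlap those of AI413582 at 6.41 to 10.6 CPM. Whether the counting used strand is not given in the sources used here.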

How the data were processed

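RNA-seq of 3 WT and 3 KO cultures at day 3 was analysed, with genotype and replicate taken from the labels. The 10 genes, the companion lists and the tests were chosen with earlier results of these data known. Per the labels and methods, the authors aligned paired-end reads of stranded poly(A) libraries to GRCm38/mm10 with HISAT2 2.1.0. The authors deposited raw counts per gene without normalization. FPKM values for 12633 genes were deposited too, made by the authors with Cufflinks 2.1.1, beside a log2 fold change and an FDR p-value of their own comparison, which were not used. All 75798 counts repeated beside the FPKM equal those of the count table.

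Counts were tested with edgeR 4.0.16 in R 4.3.3 (TMM, filterByExpr, quasi-likelihood test without covariates, Benjamini-Hochberg adjustment). SE is the absolute log2 fold change over the square root of F. Log2 CPM used a prior count of 2. The counts per library gave a floor of 3 counts, or 0.142 to 0.143 CPM, which covers counting error only. The test was tried first on simulated counts with known changes. Other settings tried were library size as the only scaling, RLE size factors, other filters, DESeq2 1.42.0, limma 3.58.1 on log2(FPKM + 0.1), the replicate block and each library left out. Named genes were Rnf20, the 10 genes, up to 3 genes a direction and list with the largest change at an adjusted p under 0.05, and the 3 genes nearest to each of the 10. Mki67, Tyms, Sox2, Atad2b, Lin28b, Adgre1, Csf1r, Ptprc, Cd68, Kdr, Krt8, Krt18, Epcam, Cdh1, Fn1, Vim and the overlapping genes and copies were named after their values were seen. Positions and exon overlaps come from GENCODE M21, matched by identifier for 16525 genes. One result on shared reads is not reported here.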

Additional observations from a re-analysis of the deposited data

How the results depend on the processing

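Of the 10 genes 4 were called lower with TMM, and also with RLE size factors, library size only and both other filters. DESeq2 called 6, limma on FPKM 1 (Hmgb2) and the edgeR fit with the replicate block 0. In the fit with the block 8 of 10 were lower at adjusted p-values up to 0.0495, beside 11.1% of all genes under 0.05. Replicate numbers did not pair the samples (correlations of same-numbered deviations −0.066, 0.037 and 0.011). Leaving out single libraries, the number called lower ran from 0 to 5, and the number lower at an adjusted p under 0.05 from 5 to 8, since Hmgb3, Hmgn3 and Atad2 missed that limit without any 1 WT library. The genes called lower over the whole table went from 279 to 565 with DESeq2, to 0 with the block, to 1 without any 1 WT library, to 49 and 30 without KO replicates 1 and 2, and to 490 without KO replicate 3. Fewer samples leave fewer residual degrees of freedom, while the cause of the higher count without KO replicate 3 was not tested. Genes at an adjusted p under 0.05 were 2218 lower and 2195 higher with TMM, 2684 and 1750 with library size only, 1490 and 1385 with the block, and between 702 and 994 lower without any 1 WT library. The median of the 10 genes stayed between −1.22 and −0.98. Of 131 alternative values for single genes, 120 kept direction and side of the limit, 9 lost the limit and 2 changed sign, both for Hmgn1, at 0.0018 without WT replicate 1 and 0.013 without KO replicate 3 (range over the left-out libraries −0.085 to 0.013). All 40 alternative values of the 5 gene pairs kept their direction, but without KO replicate 3 Hmgb3 to Hmgb1 went from −0.37 to −0.10 and Atad2 to Hmgb1 from −0.22 to −0.056. The adjusted p of Hmgb3 went from 0.0268 to 1.93e-06 without KO replicate 3, and that of Atad2 from 0.0196 to 7.86e-06.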
